A study of Mus musculus with 3 samples.

Results

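In the ChIRP-seq of the seRNA PAM in mouse ASCs, 606 of the 2112 regions recovered with the odd probe pool, 28.7%, had their midpoint in protein-coding sequence. A region was counted as coding when its midpoint lay in a coding exon of any protein-coding transcript of GENCODE M1, the annotation of mm9, so neither its score nor the even pool was used to choose it. The 606 regions lay in 454 genes, and both pools together had 2457 regions. ASCs are activated satellite cells, the muscle stem cells that have left quiescence. They were sorted from digested hindlimb muscle of Tg:Pax7-nGFP mice, in which a nuclear green fluorescent protein marks cells that use the Pax7 gene, and were grown with horse serum and FGF-Basic on coated dishes, with no further treatment. The age and number of the mice were not given in the labels. Glutaraldehyde (1%, 10 min) fixed the cells, and the sonicated lysate was kept with 100 pmol of the probes of a pool for 4 h at 37 °C. The odd and even pools had 1 library each, so no value has a replicate error, no test between conditions was possible, and all intervals cover counting error only. The input library was not analysed here, and the depth of the libraries is unknown.

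ChIRP-seq uses short biotinylated probes that are complementary to an RNA to pull that RNA down together with the crosslinked material around it, and then sequences the recovered DNA. The probes are split into odd and even pools that share no sequence, because a site bound through the RNA should come down with either pool, while a site caught by a single probe should not. Coding sequence is the part of a gene that is translated. In the genome it is cut into exons that are separated by introns, and the introns are absent from the mature mRNA. A super enhancer RNA (seRNA) is transcribed from a cluster of enhancers and can act on distant genes, and coding exons are not the usual place of promoters or enhancers.

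The sequences of 10 regions show what the pulled-down stretches look like, 1 per gene, from genes with the highest scores, with 4 or more coding regions or with an overlapping even region, and only regions without untranslated bases. Each is 254 bases long, was read from mm9 and is written 5′ to 3′ on the strand of the gene. Capitals mark coding bases of the transcript that was used to place the region, and lower-case bases are intron.
Gm10800, chr2:98507162-98507415, minus strand: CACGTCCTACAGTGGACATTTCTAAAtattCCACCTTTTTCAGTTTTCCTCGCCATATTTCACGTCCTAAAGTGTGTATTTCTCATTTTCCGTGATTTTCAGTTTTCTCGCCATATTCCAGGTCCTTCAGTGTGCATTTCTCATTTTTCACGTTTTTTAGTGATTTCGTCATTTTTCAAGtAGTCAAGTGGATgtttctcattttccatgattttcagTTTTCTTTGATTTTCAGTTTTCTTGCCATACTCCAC
Actb, chr5:143666019-143666272, minus strand: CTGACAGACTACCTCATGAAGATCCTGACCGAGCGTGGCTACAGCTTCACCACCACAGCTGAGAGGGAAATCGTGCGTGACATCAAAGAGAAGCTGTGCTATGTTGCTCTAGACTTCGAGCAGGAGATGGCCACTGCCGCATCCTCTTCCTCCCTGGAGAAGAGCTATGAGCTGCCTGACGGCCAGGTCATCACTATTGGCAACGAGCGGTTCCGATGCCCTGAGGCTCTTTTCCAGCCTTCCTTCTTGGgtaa
Fn1, chr1:71643973-71644226, minus strand: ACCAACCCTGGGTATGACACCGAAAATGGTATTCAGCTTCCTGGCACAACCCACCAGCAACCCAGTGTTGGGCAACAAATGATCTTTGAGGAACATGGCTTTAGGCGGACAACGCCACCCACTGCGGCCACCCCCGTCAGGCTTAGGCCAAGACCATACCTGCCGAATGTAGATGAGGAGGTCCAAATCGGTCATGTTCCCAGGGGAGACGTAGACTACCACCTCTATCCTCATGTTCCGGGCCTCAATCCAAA
Col3a1, chr1:45402684-45402937, plus strand: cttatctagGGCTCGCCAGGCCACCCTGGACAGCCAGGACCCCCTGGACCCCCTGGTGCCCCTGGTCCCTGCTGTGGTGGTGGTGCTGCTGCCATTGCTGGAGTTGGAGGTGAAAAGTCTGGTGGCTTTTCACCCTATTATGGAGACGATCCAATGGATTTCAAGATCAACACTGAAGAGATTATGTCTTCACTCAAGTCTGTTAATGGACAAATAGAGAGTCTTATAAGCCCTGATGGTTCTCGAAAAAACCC
Spp1, chr5:104869219-104869472, plus strand: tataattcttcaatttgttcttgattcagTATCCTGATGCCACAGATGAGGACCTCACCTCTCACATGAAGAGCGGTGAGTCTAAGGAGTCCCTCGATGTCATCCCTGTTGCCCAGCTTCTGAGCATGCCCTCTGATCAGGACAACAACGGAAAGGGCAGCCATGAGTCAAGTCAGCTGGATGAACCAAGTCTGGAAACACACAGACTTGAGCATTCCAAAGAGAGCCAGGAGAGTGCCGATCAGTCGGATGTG
Acta2, chr19:34317775-34318028, minus strand: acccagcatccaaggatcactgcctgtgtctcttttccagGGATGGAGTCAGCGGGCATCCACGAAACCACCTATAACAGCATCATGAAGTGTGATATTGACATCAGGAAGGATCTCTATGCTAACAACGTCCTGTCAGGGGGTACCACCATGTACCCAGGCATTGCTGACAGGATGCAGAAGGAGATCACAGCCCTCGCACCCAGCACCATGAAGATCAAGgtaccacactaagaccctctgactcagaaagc
Col1a2, chr6:4489432-4489685, plus strand: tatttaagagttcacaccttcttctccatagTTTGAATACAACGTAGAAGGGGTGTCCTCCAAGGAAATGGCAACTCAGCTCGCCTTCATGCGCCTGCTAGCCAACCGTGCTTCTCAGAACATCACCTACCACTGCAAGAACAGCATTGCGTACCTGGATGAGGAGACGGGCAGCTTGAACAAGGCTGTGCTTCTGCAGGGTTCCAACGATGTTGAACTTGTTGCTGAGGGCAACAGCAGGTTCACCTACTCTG
Flna, chrX:71472824-71473077, minus strand: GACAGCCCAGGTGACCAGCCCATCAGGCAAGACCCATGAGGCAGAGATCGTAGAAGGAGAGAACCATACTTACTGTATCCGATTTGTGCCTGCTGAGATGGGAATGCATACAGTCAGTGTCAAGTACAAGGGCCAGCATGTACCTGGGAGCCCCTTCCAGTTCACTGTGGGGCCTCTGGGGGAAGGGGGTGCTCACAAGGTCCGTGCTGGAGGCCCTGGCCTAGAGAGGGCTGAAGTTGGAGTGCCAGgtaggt
Itgb1, chr8:131246704-131246957, plus strand: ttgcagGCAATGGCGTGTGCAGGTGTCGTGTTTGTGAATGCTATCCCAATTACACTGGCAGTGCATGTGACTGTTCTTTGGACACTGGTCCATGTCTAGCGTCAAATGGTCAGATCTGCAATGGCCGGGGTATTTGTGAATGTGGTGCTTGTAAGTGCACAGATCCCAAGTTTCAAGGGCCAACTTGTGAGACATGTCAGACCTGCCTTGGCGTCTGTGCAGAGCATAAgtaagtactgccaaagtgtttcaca
Wls, chr3:159535864-159536117, plus strand: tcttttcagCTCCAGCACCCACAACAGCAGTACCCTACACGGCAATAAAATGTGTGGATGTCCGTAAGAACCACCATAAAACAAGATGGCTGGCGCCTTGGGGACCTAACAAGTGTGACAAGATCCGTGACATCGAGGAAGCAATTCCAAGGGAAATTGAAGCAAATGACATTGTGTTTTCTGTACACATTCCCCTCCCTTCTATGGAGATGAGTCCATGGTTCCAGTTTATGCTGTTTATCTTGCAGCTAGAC

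In the Fn1 region, all 254 bases were coding. The regions of Acta2 and Itgb1 each held a coding exon whole and ran into the intron on both sides, with 72 and 31 intron bases. In Col3a1, Spp1, Col1a2 and Wls, the region began in the intron, crossed the acceptor ag and went on in the exon, while in Actb and Flna it ended just past the donor gt. The Gm10800 region differed from the others in that short gaps of the annotation cut it into 4 coding stretches, and its median 31-mer occurred 3 times in mm9. Over all 606 regions, 325 acceptor and 266 donor borders of the coding exon at the midpoint lay inside the region, and 322 and 260 of them carried AG and GT, the usual letters of a splice site.

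Regions in coding sequence made up 28.7% of the odd list (95% Wilson interval 26.8% to 30.7%), although coding exons cover 1.35% of the genome. The 3′ untranslated class was larger, with 922 regions or 43.7%, and the rest were intergenic (242 regions), intronic (190), in other exons such as those of noncoding RNAs (118) or 5′ untranslated (34). In the even pool, whose regions were 248 bp wide, 69 of 345 regions were coding, or 20.0% (16.1% to 24.5%). Each region carries a score that the authors deposited, a whole number whose meaning is not given in the sources used here, and scores were compared only within a list. The median score of the coding regions was 6, with quartiles of 4 and 9 and a highest score of 67, and the 3′ untranslated regions also had a median of 6. Introns had a median of 4, intergenic regions 5 and 5′ untranslated regions 5.5. Other exons had a median of 7, the highest of the classes. A score of at least 20 was held by 45 coding regions from 23 genes, or 7.43% (5.60% to 9.79%), compared with 4.56% of the 3′ untranslated regions (3.39% to 6.10%), 1.05% of the intronic regions (0.289% to 3.76%) and 1.65% of the intergenic regions (0.645% to 4.17%). The interval of the coding regions lay above those of introns and intergenic regions and overlapped that of the 3′ untranslated regions. It also overlapped those of other exons (5.08%, 2.35% to 10.7%) and of 5′ untranslated regions (2.94%, 0.521% to 14.9%). Regions of the same gene are counted here as if independent, so the comparison is a description and not a test. The lowest score, 4, was held by 26.1% of the coding regions (22.7% to 29.7%), 21.5% of the 3′ untranslated (18.9% to 24.2%), 24.6% of the other exon, 29.4% of the 5′ untranslated, 55.8% of the intronic and 46.3% of the intergenic regions.

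**Figure D1:**
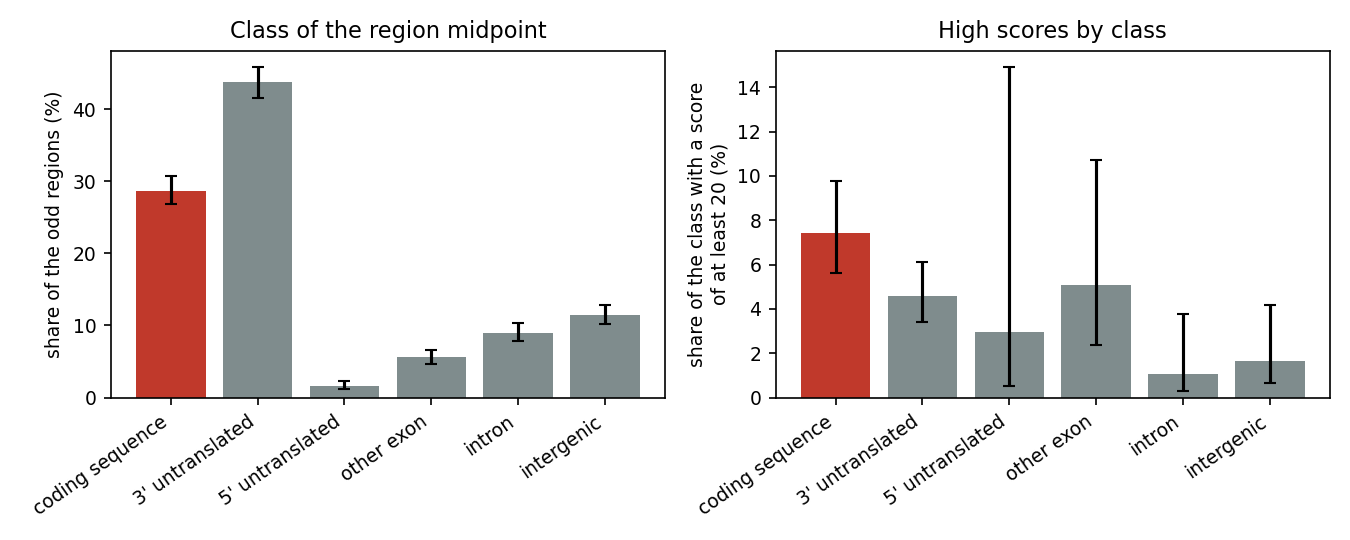
Left, the share of the 2112 odd regions in each class of midpoint; right, the share of each class with a score of at least 20. Bars are percentages and lines are 95% Wilson intervals. Coding sequence (red) holds 28.7% of the regions, second to the 3′ untranslated class, and 7.43% of its regions score 20 or more.

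The 10 highest coding scores belonged to 7 genes, most of which encode cytoskeletal or secreted matrix proteins. The region of Gm10800, a predicted gene model on chromosome 2, scored 67. Actb, which encodes cytoplasmic beta-actin, had 3 coding regions with scores of 34, 66 and 60 in the order of the gene, in its coding exons 2, 3 and 5. Fn1, the gene of the matrix glycoprotein fibronectin, reached 63 in coding exon 40. Col3a1, which encodes the chain of type III collagen, had scores of 53, 46 and 42 among the 10, and a second Fn1 region also scored 42. Vim, which encodes the intermediate filament vimentin, scored 53 in its first coding exon, and its exons 4 and 6 had scores of 26 and 31. Spp1, the gene of osteopontin, scored 48 in its last coding exon and 29 in the one before. Mgp, which encodes the matrix Gla protein, scored 48 in its last coding exon. Of these regions, only that of Gm10800 had a repeated sequence.

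Fn1 stood apart from every other gene by number. It had 24 coding regions, each in a different exon, so that 24 of its 46 coding exons had a region at chr1:71632094-71699774. The scores in the order of the coding sequence were 7, 9, 8, 12, 9, 8, 8, 15, 13, 27, 17, 11 and 9 in the first part, up to the middle of the 7431 coding nucleotides. They were 15, 15, 42, 24, 17, 19, 21, 22, 22, 63 and 26 in the second part. The median was 9 over the 13 regions of the first part (7 to 27) and 22 over the 11 regions of the second (15 to 63), so scores were higher towards the stop codon, although both ranges overlapped. Over the 24 regions, position and score had a Spearman correlation of 0.810, a description of points that share a gene and a library. The exons with a region had a median length of 180 bp (132 to 467 bp), and the 22 exons without had a median of 116 bp (69 to 178 bp). Of the 24 regions, 18 covered their exon whole and ran into the introns. The even pool overlapped 7 of the 24. Fn1 also had a 3′ untranslated odd region with a score of 81, the highest of the odd list.

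Col3a1 had the next largest number, with 7 regions in 7 of 51 coding exons. Their scores were 12, 9, 12, 53, 39, 42 and 46 from the start codon to the stop codon, and the 4 highest were in the last 4 coding exons, 48 to 51. The 7 exons with a region had a median length of 188 bp (108 to 295 bp), whereas the 44 without had a median of 54 bp (45 to 114 bp), since most exons of a fibrillar collagen are short. The related Col1a2 had 2 regions, with scores of 15 and 38 in coding exons 51 and 52 of 52, and Col1a1 had 2 regions with scores of 7 in coding exons 48 and 51 of 51. In all 3 of these collagen genes, the last coding exon was among the exons with a region.

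Acta2, which encodes smooth muscle alpha-actin, had 5 regions with scores of 10, 7, 15, 13 and 17. Hsp90ab1, the gene of a cytosolic chaperone, had 4 regions with scores of 32, 26, 22 and 28, which did not differ by position as those of Fn1 did. Dcn, the gene of the proteoglycan decorin, had scores of 9, 4, 5 and 12, and Flna, which encodes the actin crosslinker filamin A, had 7, 6, 8 and 12. Itgb1, the gene of integrin beta 1, had 5, 5, 10 and 8. Wls, which carries Wnt ligands to the cell surface, had 7, 4, 5 and 4, and Nid1, the gene of the basement membrane protein nidogen 1, had 5, 6, 4 and 4. In these 9 genes, the scores of a gene mostly stayed within a few units of each other in the genes with low scores, and the largest span was that of Fn1.

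**Figure D2:**
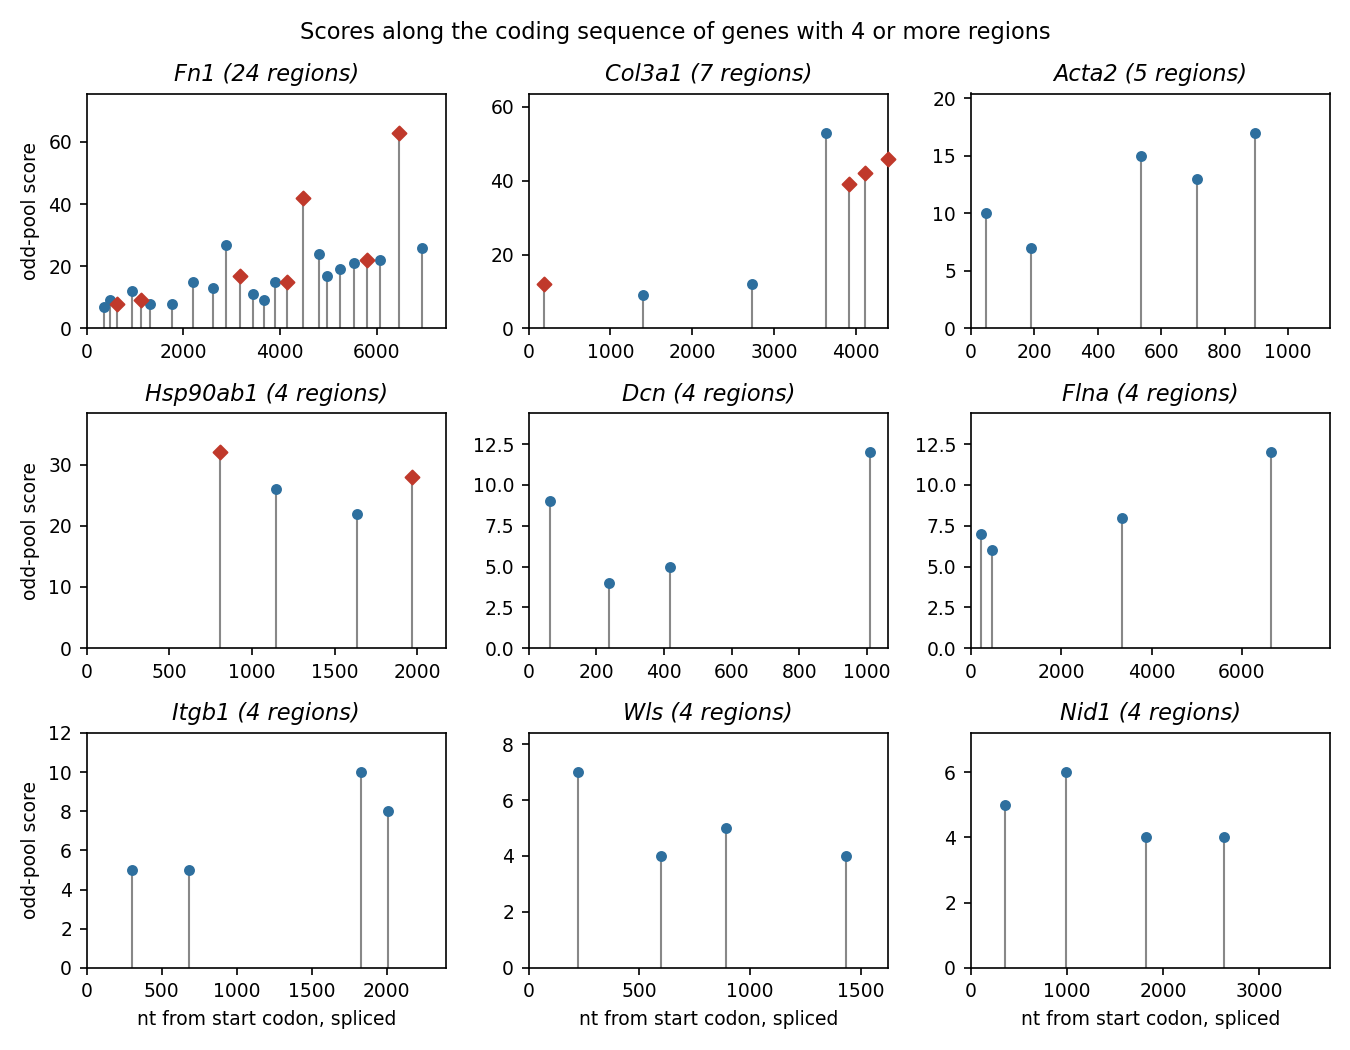
Odd-pool score (vertical axis) against the midpoint in nucleotides from the start codon along the spliced coding sequence (horizontal axis, full length of the coding sequence), for the 9 genes with 4 or more coding regions. Red diamonds are regions that an even region overlaps and blue dots are the others; the scales differ between panels. Fn1 scores run from 7 to 63 and the 4 highest scores of Col3a1 are its 4 most 3′ regions.

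Of the 454 genes, 362 had 1 coding region, 65 had 2, 18 had 3 and the 9 genes above had 4 or more. The 92 genes with 2 or more regions held 244 of the 606 regions, and in 28 of them neighbouring coding exons both had a region. In 60 of the 92 genes, 65.2%, the region nearest the transcript end had a higher score than the one farthest from it, in 16 it had a lower score and in 16 the scores were equal. The member genes had a median coding sequence of 1318 nt in 8 coding exons, compared with 1131 nt in 6 exons over all annotated coding genes. Of the 454 genes, 136 also had an odd region in the 3′ untranslated part (30.0%), which 865 of the 22378 annotated coding genes had (3.87%). In 108 of those 136 genes the 3′ untranslated region had the higher top score, in 18 the coding region did and in 10 they were equal.

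The regions were placed along the coding sequence by their midpoint, 0% at the start codon and 100% at the stop codon. The median position was 58.2%, with quartiles of 34.6% and 85.3%. The coding sequence was divided into 10 equal bins. The last bin held 115 regions, 19.0% (16.1% to 22.3%), and the first bin held 34, 5.61% (4.04% to 7.74%), where 10% in each bin is what length alone gives. The bin before the last held 12.5% and the others between 7.92% and 11.4%. Among the 572 regions in transcripts with 2 or more coding exons, 150 were in the last coding exon, 26.2% (22.8% to 30.0%), against 14.2% when the midpoint was placed at each coding base of the same transcripts in turn. The first coding exon held 12.1%, against 13.2% by length, and internal coding exons held 61.7%, against 72.6%. Within 1000 nt of the transcript end, counted along the spliced transcript, lay 241 regions (39.8%), and 121 regions held bases of the 3′ untranslated part, compared with 37 that held 5′ untranslated bases. No value by length was computed for these counts, so they do not show an excess. The median score was 6 in the first, internal, last and only coding exons, medians that pool genes of different score levels.

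The length of the exon also set the coding regions apart from their own transcripts. The coding exon at the midpoint had a median length of 221 bp. Placement by length gave 183 bp, a value based on mean exon lengths and so not the same measure as that median. Coding exons of up to 100 bp held 8 regions, 1.32% (0.670% to 2.58%), against 14.0% by length, and those of 101 to 150 bp held 17.2% (14.4% to 20.4%), against 26.0%. Exons longer than the 254 bp of a region held 247 regions, 40.8% (36.9% to 44.7%), against 28.6%. The median score was 4.5 in the shortest exons, 5 in those of 101 to 150 bp and 6 in each of the 3 longer groups. Because the region has a fixed width, 465 regions (76.7%) reached beyond their coding exon, fewer than the 86.3% that length alone gives, and 141 (23.3%) lay wholly within it, against 13.7%. Where the exon was no longer than the region, the region covered it whole in 290 of 359 cases, 80.8% (76.4% to 84.5%), against 69.6%, so regions were centred on short exons more often than placement by length gives. Intron bases made up a median of 31 of the 254 bases. A further 210 odd regions touched coding sequence without having their midpoint in it. Of the regions nearest the limit, 18 had a midpoint within 10 bp inside the edge of the exon, with a median score of 5, and 18 lay within 10 bp outside, with a median of 5.5.

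**Figure D3:**
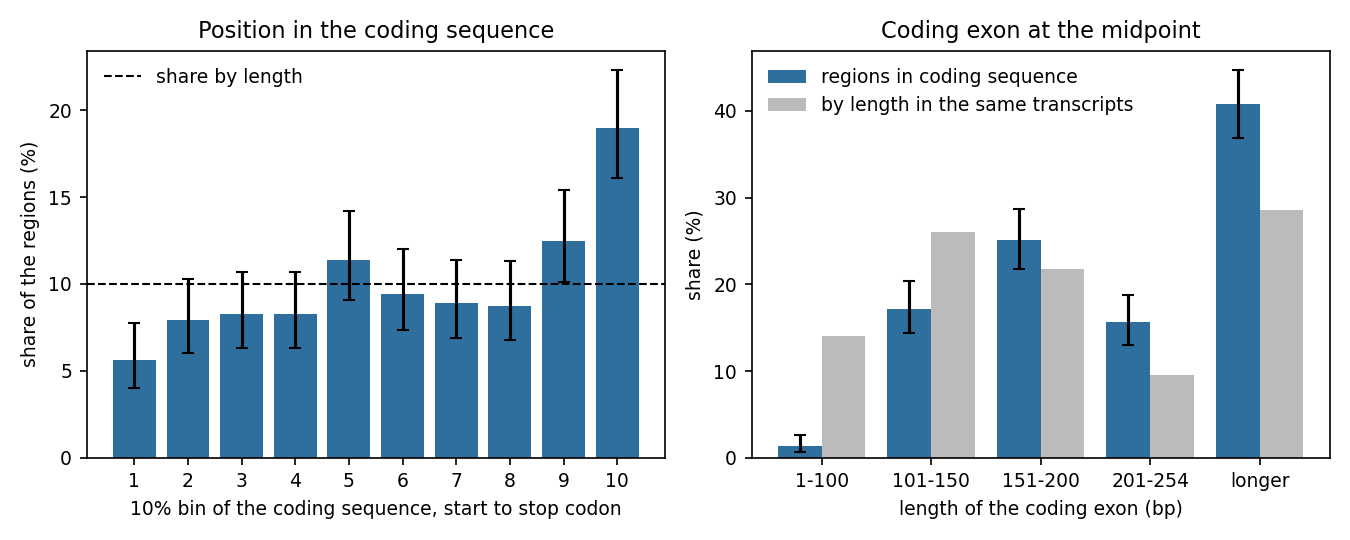
Left, the share of the 606 coding regions in each of 10 bins of the coding sequence, with the 10% given by length as a dashed line; right, the share by length of the coding exon (blue) and the share given by length in the same transcripts (grey). Lines are 95% Wilson intervals. The last bin holds 19.0% and exons of up to 100 bp hold 1.32%, against 14.0% by length.

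In base composition the coding regions were close to the coding sequence around them. Their median GC content was 52.8%, compared with 44.9% in the 3′ untranslated, 53.9% in the intronic and 50.8% in the intergenic odd regions. It was 62.0% in the 5′ untranslated and 48.0% in the other exon regions. The coding sequences that the coding regions came from had a median of 53.8%. A coding region differed from its own coding sequence by a median of -0.523 percentage points. The 141 regions that lay wholly in an exon differed by 0.134 points. A coding region held a median of 7 CpG, against 3 in the 3′ untranslated, 1 in the intronic and 2 in the intergenic regions. The median was 14.5 in the 5′ untranslated and 6 in the other exon regions, so it was not highest in coding sequence. A run of 20 or more bases that were all purines, or all pyrimidines, was found in 15 coding regions (2.48%) and in 134 of the 1506 other odd regions (8.90%).

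Most coding regions were of unique sequence. A region was called repeated when its median 31-mer occurred at least 2 times in mm9, which 54 coding regions did, 8.91% (6.89% to 11.4%). The share was 4.56% in the 3′ untranslated class, 42.1% in introns (35.3% to 49.2%) and 42.6% in intergenic regions (36.5% to 48.9%). It was 57.6% in other exons (48.6% to 66.2%) and 5.88% in the 5′ untranslated class (1.63% to 19.1%). The repeated coding regions had a median score of 7 and the others a median of 6. They included Eef1a1 and Eef2, which encode elongation factors, with scores of up to 25, the glycolytic genes Pkm2 and Ldha with scores of up to 17 and 13, and Tuba1a with 12. For these, a read from a near-identical gene or processed copy may be placed here, so the position is uncertain. Of the 34 regions in transcripts with a single coding exon, 17 were repeated, and 23 of all coding regions were in predicted gene models whose names begin with Gm.

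An even region overlapped 44 of the 606 coding regions by at least 1 bp, 7.26% (5.45% to 9.61%), against 6.96% of all odd regions. The share of coding regions recovered with both pools was thus near that of the whole list, and it was 5.75% in the 3′ untranslated class, 6.32% in introns, 7.85% in intergenic regions, 8.82% in the 5′ untranslated class (3.05% to 23.0%) and 13.6% in other exons (8.52% to 20.9%). The overlap followed the odd score. Of the 158 coding regions with a score of 4, 0 were overlapped, which allows a share of up to 1.90% when 3 counts are taken as the limit of a count of 0 (the Wilson interval reaches 2.37%). Of those with scores of 5 to 9, 2.84% were overlapped, of those with 10 to 19, 16.3% (9.95% to 25.5%), and of those with 20 or more, 46.7% (32.9% to 60.9%). The 3′ untranslated regions had higher shares at higher scores in the same way, from 0.505% through 2.12% and 13.5% to 45.2%, and the intervals of both classes overlapped in every band. The overlapped coding regions had a median odd score of 18 and the others a median of 5.

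The 44 overlapped regions lay in 32 genes and had even scores of 4 to 66. The highest even scores were 66 at Gm10800, 29 at Mgp, 18 and 17 at Actb, 16 at Fn1 exon 40 and 16 at Spp1. Col3a1 had even scores of 12, 8 and 13 beside odd scores of 46, 42 and 39, and the last coding exon of Col1a2 had 11 beside 38. Coding exon 2 of Col3a1 also had an overlapped region, with an even score of 5 beside an odd score of 12. The strongest Col3a1 region, with an odd score of 53, had no even region. Over the 44 regions, odd and even scores had a Spearman correlation of 0.872. This is a description, since regions of a gene share a transcript and both pools share the cells, and whether both lists score on the same scale is unknown. The midpoints of paired regions lay a median of 26.5 bp apart, and 8 of the 44 were repeated. Seen from the even pool, 38 of its 69 coding regions (55.1%) overlapped an odd coding region, and 57 (82.6%) lay in a gene that had an odd coding region.

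**Figure D4:**
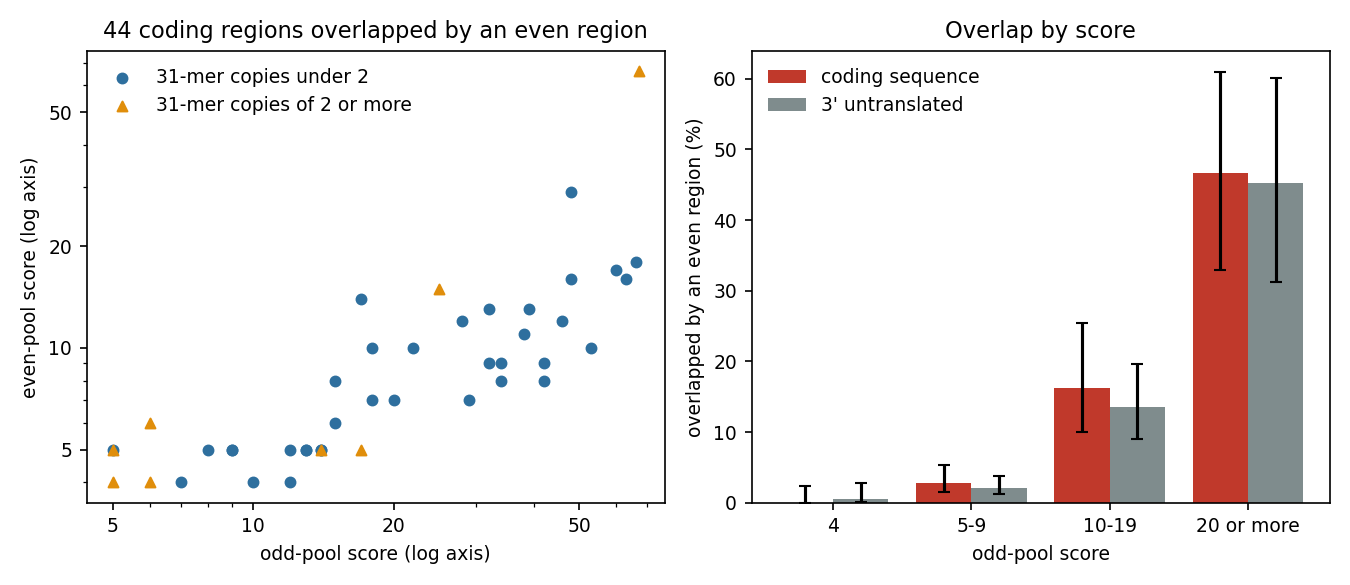
Left, the even-pool score against the odd-pool score, both on log axes, for the 44 coding regions that an even region overlaps, with repeated sequences as orange triangles; right, the share of regions overlapped by an even region by odd score, for coding (red) and 3′ untranslated (grey) regions, with 95% Wilson intervals. The share in coding sequence goes from 0% at a score of 4 to 46.7% at 20 or more.

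Genes that the study had singled out differed in where their regions lay. Vim had 3 coding regions, with scores of 53, 26 and 31, of which the first was overlapped by an even region that scored 10. Timp2, which encodes an inhibitor of metalloproteases, had no coding region in either pool. It had 1 odd and 1 even region in its 3′ untranslated part, and the same was true of Pttg1ip and Col4a2. Itga7, the gene of a laminin-binding integrin of muscle, had 3 coding regions with scores of 6, 10 and 9, of which the last was overlapped by an even region that scored 5, and another even coding region that also scored 5 overlapped none of them. Ctnnb1, which encodes beta-catenin, had 1 in coding exon 8 with a score of 9 and an even coding region with a score of 4 that did not overlap it. Macf1, which encodes a linker between actin and microtubules, had 1 in its last coding exon with a score of 9 and no even coding region. Each pool also had 1 Macf1 region in the 3′ untranslated part. Ubb, a polyubiquitin gene, had 1 repeated region with a score of 6, overlapped by an even region that also scored 6. The paper studied the RNA helicase Ddx5 as a protein partner of PAM, and not its gene as a target. The Ddx5 gene had 1 coding region with a score of 12 and a median 31-mer copy number of 2. It had no even region of any class.

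Over all annotated coding genes, 2.03% had an odd coding region. In 14 lists of genes by function, the share was higher in every list. The lists were chosen with earlier results of these data known and some share genes, so the shares describe the lists and cannot test enrichment. Collagen chains had a region in 7 of 20 genes, where Col6a1 scored 11 and Col6a2 9, below Col3a1 and Col1a2 and above Col1a1 with 7 and Col5a1 with 5, and other matrix genes in 12 of 33, including Hspg2 with 11 and Dcn with 12. The collagen-folding list had 3 of 12, where Serpinh1, the collagen chaperone, scored 18 and Pcolce 13, and both were overlapped by an even region. Integrins and adhesion genes had 6 of 22, led by Zyx, the gene of the focal adhesion protein zyxin, with 18. The list of metalloproteases and their inhibitors had 1 of its 12 genes, Mmp14 with a score of 12. Mmp11, which is not on that list and was noticed after its value was seen, had 1 region with a score of 6.

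Among cytoskeletal genes, 16 of 32 actin and actin-binding genes had a coding region. After Actb, the highest scores were 36 for Acta1, which encodes skeletal muscle actin, and 17 for Acta2 and for Myh9, the gene of a nonmuscle myosin. Intermediate filaments, microtubules and linkers had 7 of 17, with Tubb5 at 31 and Des and Tubb6 at 19. Myogenic regulators and muscle proteins had 6 of 26, of which Des, the gene of desmin, scored 19, the embryonic myosin Myh3 scored 11, Tnnc1 scored 10 and Myog scored 8. Genes used in all cells were also present. Translation factors had 10 of 18, chaperones 10 of 24, RNA-binding and splicing proteins 6 of 20, glycolytic enzymes 5 of 17, lysosomal and endocytic genes 7 of 12 and cell cycle and growth regulators 3 of 22. Of these, Eef2 reached 29, Hspa5, the chaperone of the endoplasmic reticulum, 17, Lamp1 15, Psap 14, Cdkn1a 15 and Ncl, the gene of nucleolin, 8. In the glycolytic list, 4 of 7 regions were repeated.

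**Figure D5:**
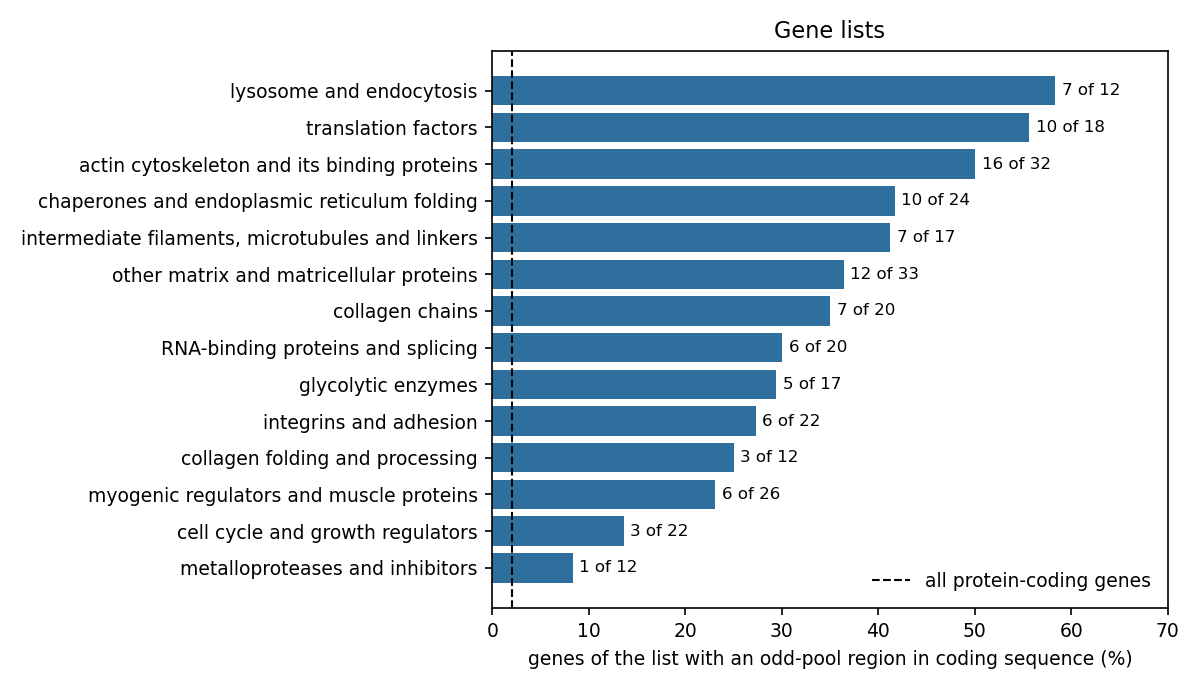
Share of the genes of each list with at least 1 odd coding region, with the number of genes beside each bar. The dashed line is the 2.03% of all annotated coding genes, given for reference only, since the lists were chosen with earlier results known. The share runs from 1 of 12 for metalloproteases and inhibitors to 7 of 12 for lysosome and endocytosis.

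Markers of the cell types that a muscle preparation could hold were read the same way, as recovered regions and not as expression. Of 10 satellite cell and myoblast markers, 4 had a coding region, namely Des with 19, Itga7 with up to 10, Myog with 8 and Vcam1 with 4. With odd 3′ untranslated regions also counted, 6 of these 10 markers had a region, while the count for the 7 fibroblast markers below stayed at 5. Pax7, Myf5, Myod1 and Cdh15 had no region of any class in either pool. Of 7 fibroblast or fibro-adipogenic markers, 5 had coding regions, 16 in all, which were Col3a1, Col1a2, Ly6a with 25, Dcn and Col1a1, and Pdgfra and Lum had 0. These are also matrix genes of the lists above apart from Ly6a, and a part of other cells in the result was not tested. Of 3 endothelial and 4 immune markers, 0 had a coding region. The share over all annotated coding genes was 2.03%, so a count of 0 in lists this short does not show that such cells were absent.

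On chromosome 4, where PAM lies, there were 28 coding regions, 4.62% (3.22% to 6.60%), and the chromosome holds 6.08% of coding bases, a value within that interval. The nearest to PAM was in Plaa at 5.51 Mb with a score of 4, the lowest score, and a region in Tmem59 at 18.1 Mb had a score of 5. The density of coding regions was 12.9 per Mb of coding sequence on chromosome 4 and ran from 9.28 on chromosome 12 to 32.6 on chromosome 15. Chromosome 1 had 55 coding regions, of which 24 were in Fn1.

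The probes were compared with the regions because a probe can catch a stretch that resembles its target. All 6 probes of 20 nt are shown with the longest run shared with a coding region, on either strand, in capitals. Which of the probes made up the odd pool is not given in the sources used here, so a probe shown may not have been in the pool that gave these regions.
probe 1: GCCAGAAAGAAtggatgact
probe 2: GCATTTTCAGtgggatcaca
probe 3: aCCTGCCATCTGctatcaaa
probe 4: tcttCACAAACCCTCAtgat
probe 5: acaagtaCTTCAGCTCCAtg
probe 6: gTTCTGATATGtaagctcct

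The longest exact run that a coding region shared with any probe had a median of 7 nt, the same as in the other odd classes except other exons, where it was 8 nt. Runs of 10 nt or more were found in 26 coding regions, 4.29% (2.94% to 6.21%), and in 69 of the 1506 other odd regions, 4.58% (3.64% to 5.76%). The longest, 12 nt, was shared by probe 4 and a region of A430110N23Rik with a score of 4. Runs of 11 nt were shared by probe 1 and Gm10094, by probe 3 and Ctnnb1 and by probe 5 and Pkm2, which scored 5, 9 and 9. The 26 regions had a median score of 5, and all coding regions together had a median of 6. Whether a probe caught any of these regions directly was not tested.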

How the data were processed

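PAM ChIRP-seq was analysed from 1 odd and 1 even library of ASCs, and the input library was not used here. Per the study's methods, the authors kept reads that Bowtie2 placed at a unique site of mm9, used MACS2 for peak calling (versions not given in the sources used here) and deposited 1 list per pool, in which every region has the same width and carries a score. This score was used as deposited. The lists hold no read counts, so depth is unknown, and unique mapping leaves out reads that fit several places equally well.

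Starts were taken as 0-based and are printed 1-based. The chromosome lengths of the reference matched mm9. Each midpoint was classed by GENCODE M1 in the order coding, 3′ untranslated, 5′ untranslated, other exon, intron, intergenic. Values called by length placed the midpoint at each coding base of the same transcript in turn. Intervals are 95% Wilson intervals. Occurrences of each 31-mer were counted in mm9 on both strands. The classing recovered 200 of 200 windows planted on coding bases, and bedtools found the same 606 regions. Members and lists were chosen with earlier results of these data known. Named genes were the 10 highest scores, genes with 4 or more regions, the 12 highest regions with an even overlap, up to 4 genes per list by score, genes the study singled out and the 3 coding regions nearest PAM, of which 1 is not reported here, nor are 2 of the 12 sequences that the rule chose. Other genes were named after their values were seen. Python 3.11.15, NumPy 2.4.6, SciPy 1.17.1, numba 0.67.0, pysam 0.24.0, matplotlib 3.10.9, samtools 1.23.1 and bedtools 2.31.1 were used.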

Additional observations from a re-analysis of the deposited data

How the results depend on the processing

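Of 10 results under 13 alternatives, 47 values stayed within the interval of the reported value, or for the number of genes, which has no interval, within 1.5 times of it, and 14 did not. When any overlap with coding sequence was enough, coding regions made up 38.6% of the odd list, 40.8% were in the last coding exon, 82.7% reached beyond their exon and the median position was 71.7%. The number of genes was then 607 in place of 454, which is among the values that stayed within the limit. With at least 50% of bases in coding sequence, coding regions made up 26.3%. With a score of at least 10, the share was 31.8%, an even region overlapped 26.7%, and 85 genes had a region. Among regions whose median 31-mer had fewer than 2 copies, the share was 31.3%. An even region lay within 1000 bp of 12.5% and in a coding exon of the same gene for 19.0%. With 1 region per gene, 33.6% were in the last coding exon, 73.1% reached beyond it and the median position was 65.4%. Without Fn1 the median score was 5, which is within the interval of the reported median (5 to 6) and so counted as unchanged. The cause of the differences in the 14 values was not tested, beyond the wider or narrower choice of regions that each alternative makes. No paired analysis was possible because there was 1 library for each pool and no test was run. Depth is unknown, so a region missing from the even list may be a matter of depth.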
